A study of Thermothelomyces thermophilus ATCC 42464 with 4 samples.

Results

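Small isolated methylated islands were the shortest stretches of cytosine methylation in the genome of the thermophilic filamentous fungus Myceliophthora thermophila. They were found by counting listed sites, that is, cytosines that the authors called methylated, in 1-kb windows of the 2 wild-type (WT) lists. A window with at least 10 listed sites in both WT lists was called occupied, and occupied windows of a chromosome were joined into blocks across gaps of at most 1 window. The islands are the blocks of 1 to 3 kb that lie more than 50 kb from the first and last listed site of their chromosome. The rule gave 91 islands of 403 blocks in all, beside 114 medium blocks of 4 to 19 kb, 170 large blocks of 20 kb or more and 28 blocks at chromosome ends. Together the islands covered 182 kb and held 181 of the 10464 occupied windows.

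The libraries came from whole-genome bisulfite sequencing of mycelium of strain ΔlaeA and of strain WT, both sampled after 24 h on glucose, with 2 libraries per strain and 4 in all. In bisulfite sequencing unmethylated cytosine is read as T, and the reads that keep a C give the methylated count of a cytosine. LaeA is a putative methyltransferase and a global regulator in filamentous fungi, and the comparison asks whether cytosine methylation differs without it. According to the methods, the laeA coding region was replaced by a neo resistance cassette with the help of Cas9 in ΔlaeA, while the genotype label of those libraries speaks of a knockdown and no label says whether the strain is 1 transformant. The lists held 2020637 and 1899567 sites in ΔlaeA and 2020698 and 2044100 in WT, with median depths of 56 and 47 reads in ΔlaeA and of 55 and 59 in WT, so that ΔlaeA replicate 2 was the shallowest library. Within the bounds of the laeA gene (MYCTH_2294559) there were 62 and 25 listed sites in ΔlaeA, against 2 and 1 in WT. In ΔlaeA replicate 1 these sites ran from 1 to 1747 bp from the lower bound of the gene, which is 1993 bp long, at a median depth of 23.5 reads, and in ΔlaeA replicate 2 from 7 to 726 bp at a median depth of 11 reads, against median depths of 32.5 and 22 reads in WT. The libraries labelled ΔlaeA thus held reads inside the gene. Depth at listed sites cannot measure how much of this DNA was lost, since the lists hold no site under 5 reads. Where these reads came from was not tested. The name ΔlaeA therefore stands below for the label of these libraries, and every direction between the strains rests on that label.

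As background, DNA methylation has been studied best among filamentous fungi in Neurospora crassa. There it lies mostly in AT-rich heterochromatin left behind by repeat-induced point mutation, a process that mutates duplicated sequence, and 1 methyltransferase, DIM-2, places it in every sequence context. DIM-2 is guided there by the heterochromatin protein HP1, which binds histone H3 methylated at lysine 9. Cytosines are grouped here into the contexts CG, CHG and CHH, with H for A, C or T.

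The islands were chosen by their number of listed sites in the WT lists, which is therefore given as a description. An island held from 13 to 864 listed sites in WT replicate 1 with a median of 318, and from 11 to 872 in WT replicate 2 with a median of 325. In the ΔlaeA lists, which the rule did not use, the same islands held 9 to 843 sites with a median of 309 in replicate 1 and 8 to 851 with a median of 304 in replicate 2. All islands together took 1.36% and 1.37% of the listed sites in ΔlaeA and 1.35% of them in each WT library. There were 27 islands of 1 kb, 37 of 2 kb and 27 of 3 kb. Just inside the limits, the island at chromosome 1, 4787001 to 4788000 had 18 and 12 listed sites in ΔlaeA and 15 and 11 in WT. The one at chromosome 1, 10184001 to 10185000 had 17 and 11 in ΔlaeA and 15 and 11 in WT, and the one at chromosome 2, 4751001 to 4752000 had 18 and 11 in ΔlaeA and 13 and 11 in WT. Just outside, 2 further blocks would have entered with a minimum of 9 sites, and 10 blocks measured 4 kb. The island nearest to a chromosome end lay 64646 bp from it, while the 10 blocks of 1 to 3 kb left out for their place near an end reached to 42723 bp.

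Islands lay on all 7 chromosomes, 30 of them on chromosome 1, 13 on chromosome 2, 6 on chromosome 3, 15 on chromosome 4, 11 each on chromosomes 5 and 6, and 5 on chromosome 7. Their density was 3.18 per Mb on chromosome 4 and 2.74 on chromosome 1, against 1.19 on chromosome 3 and 1.21 on chromosome 7. The word isolated held to a varying degree. The nearest other block was 2 to 358 kb away with a median of 17 kb, 43 islands had no other block within 20 kb, and 15 islands had one within 5 kb. That neighbour was another island in 26 cases, a medium block in 26, a large block in 37 and a block at a chromosome end in 2.

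The islands sat between genes, most of them close to one. Gene bounds came from RefSeq assembly ASM22609v1 and distances were taken from the edges of the 1-kb windows. A total of 45 islands (49.5%) touched a gene with their windows and 78 (85.7%) had a gene within 1 kb, with a median distance of 22 bp. Of all blocks 62.3% touched a gene and 89.1% had one within 1 kb, so that nearness to a gene did not set the islands apart. The listed sites themselves stayed mostly outside the genes: 71 islands had no WT site inside a gene, and 6.85% of island sites of WT replicate 1 fell in genes. Of all listed sites of that library 3.35% fell in genes, so lying outside genes did not set the islands apart. With all genes shifted by 2000 bp the share of island sites was 55.8%, and with a shift of 5000 bp it was 61.2%, while genes took up 46.6% of the chromosomes. The low share in genes was also taken as a sign that the gene bounds match the lists. The island sites thus lay mostly in the spaces between annotated genes. By window area 12.1% of island sequence was genic, against 7.38% in medium and 2.83% in large blocks.

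In 4 islands over 50% of the WT sites were genic. The clearest was the island at chromosome 5, 1889001 to 1892000, which lay wholly inside MYCTH_2066697, a gene of 7423 bp that the study's gene list describes by a pyruvate kinase barrel. Its 726 shared sites, the sites listed in all 4 libraries, had pooled levels of 39.4% and 35.9% in ΔlaeA and 37.8% and 38.2% in WT, and the strains overlapped. The others were the islands at chromosome 2, 4217001 to 4220000 (MYCTH_92508, 57.1% of WT sites genic), at chromosome 3, 726001 to 728000 (MYCTH_68404 and MYCTH_2303385, 66.6%) and at chromosome 7, 867001 to 870000 (MYCTH_2311517 and MYCTH_57924, 51.7%).

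At the far end stood 5 islands more than 5 kb from any gene, 4 of them on chromosome 1 between 10178001 and 10199000 and 1 on chromosome 4, 3469001 to 3472000, which was 41013 bp from the nearest gene. They lay only 2 to 3 kb from the next block. The strain means of the pooled level of their listed sites were 6.75% to 8.88% in ΔlaeA and 6.54% to 8.21% in WT, close to the 5% floor of the lists. In 4 of these 5 neither WT list held a CG site, which was so in 8 islands in all.

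Methylated sites were packed into the middle of the islands. The central stretch that held the listed sites from the 10th to the 90th percentile of position had a median length of 863 and 855 bp in ΔlaeA and 842 and 857 bp in WT. In 200-bp bins around the centre, which is the median position of the WT sites, the bin downstream of the centre held 46.8 and 45 sites per island in ΔlaeA and 46.9 and 47.0 in WT. The number of sites fell off steadily, with 9.38 and 8.74 per island between 800 and 1000 bp in ΔlaeA and 9.46 and 9.42 in WT, and 0.538 and 0.33 between 2000 and 2200 bp in ΔlaeA and 0.198 and 0.341 in WT. The level of the listed sites held on further out and then dropped within 1 bin. It was 29.7% and 27.6% in ΔlaeA and 29.4% and 30.1% in WT in the bin downstream of the centre, 24.7% and 21.9% in ΔlaeA and 25.6% and 25% in WT between 1200 and 1400 bp, and 7.24% and 7.63% in ΔlaeA and 6.85% and 6.67% in WT between 1400 and 1600 bp. The centre was set from the WT lists, and the outer windows lack sites in part because the rule asks for it. In the windows directly beside the islands the median number of listed sites was 1 and 0 in ΔlaeA and 0 in both WT libraries.

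**Figure D1:**
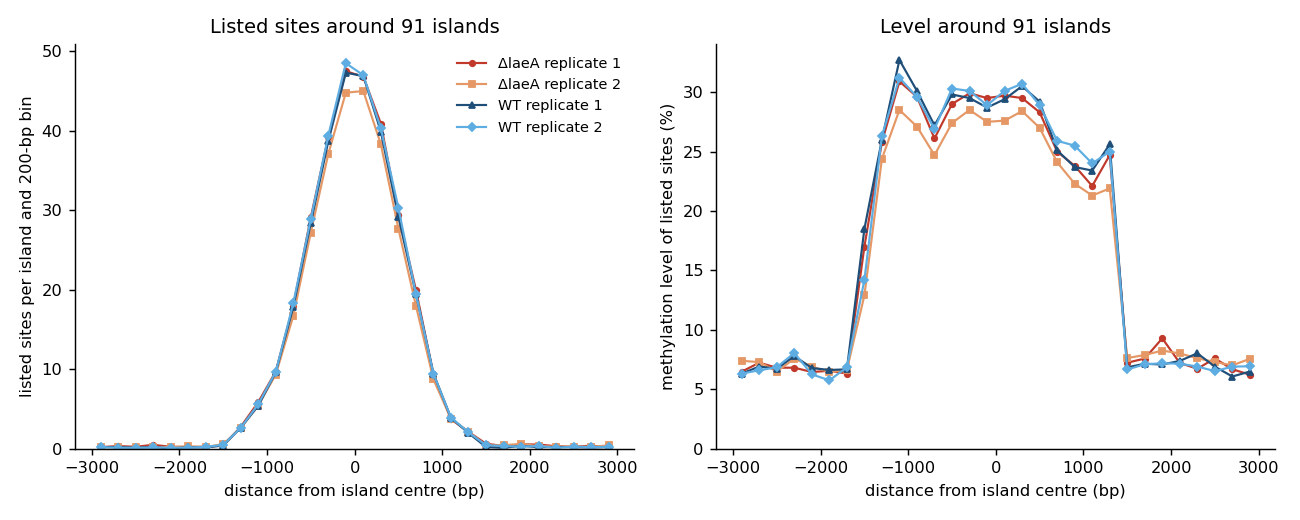
Listed sites per island and 200-bp bin (left) and pooled methylation level of listed sites in percent (right) against the distance in bp from the centre of the 91 islands, 1 line per library. In all 4 libraries the number of sites falls off steadily from the centre, to 9.38 per bin between 800 and 1000 bp in ΔlaeA replicate 1, while the level stays above 20% as far as 1400 bp downstream and is near 7% beyond.

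Cytosines in islands were more strongly methylated than those in longer blocks. To compare libraries on the same cytosines, levels were taken as methylated reads over all reads at shared sites, of which the islands held 21818. The pooled level of islands was 34.1% and 31.4% in ΔlaeA and 34.2% and 34.9% in WT. Medium blocks had 20.8% and 20.2% in ΔlaeA and 21.3% and 21.5% in WT, and large blocks had 16.7% and 16.6% in ΔlaeA and 17% in each WT library. Islands thus lay above large blocks by 17.4 and 14.8 percentage points in ΔlaeA and by 17.2 and 17.9 in WT, or by 16.1 ± 1.83 and 17.6 ± 0.472 points (mean ± SD, n = 2 each), gaps far wider than the spread between replicates. An exact two-sided sign-flip test over the 4 libraries gave p = 0.125, and no smaller p is possible with 4 libraries. The rule used numbers of sites and not levels, although the lists admit a cytosine only at 5% or more.

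**Figure D2:**
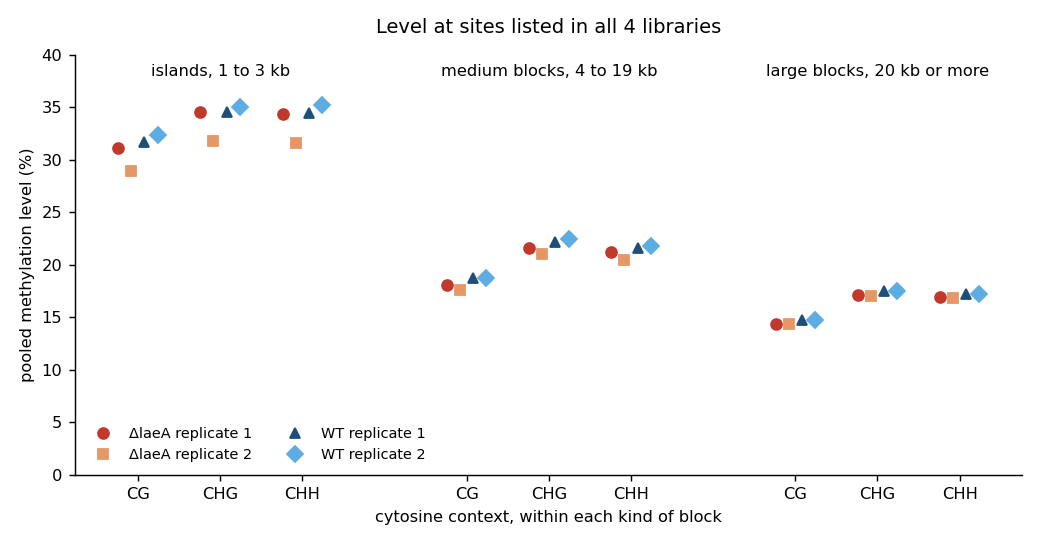
Pooled methylation level in percent at sites listed in all 4 libraries, by cytosine context, in islands, medium blocks and large blocks, 1 point per library. In all 3 contexts every library is highest in islands and lowest in large blocks, and in islands ΔlaeA replicate 2 lies below the other 3 libraries, at 28.9% for CG.

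The same order held in each context. At CG sites the islands had 31.1% and 28.9% in ΔlaeA and 31.7% and 32.4% in WT, against 14.4% in each ΔlaeA library and 14.7% in each WT library in large blocks. Island CHG sites had 34.6% and 31.8% in ΔlaeA and 34.6% and 35% in WT. Island CHH sites had 34.4% and 31.6% in ΔlaeA and 34.5% and 35.2% in WT, so that CG was the lowest context in islands as it was in large blocks. Of the sites listed in islands, 10.1% to 10.5% were CG in ΔlaeA and 10.5% to 10.7% in WT, against 11.8% in ΔlaeA and 12.2% in WT in large blocks. The CHG share was 11.3% and 11.4% in ΔlaeA and 11.3% and 11.2% in WT, against 9.36% and 9.47% in ΔlaeA and 9.49% and 9.48% in WT in large blocks.

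The most strongly methylated cytosines of the genome were concentrated in the islands. Islands held 1.64% of all shared sites but 28.7% of those with a mean level of at least 50% over the 4 libraries, and 63.4% of those with at least 75%. This is 678 of 1069 sites at 75% or more, against 271 in medium blocks and 110 in large blocks, which had 82.1% of all shared sites. Within each library taken alone, the islands held 55.3% and 53.1% of the shared sites at 75% or more in ΔlaeA and 52.0% and 53.4% in WT. These cutoffs were chosen after the levels had been seen, and the shares are a description. The 678 sites lay in 35 islands, and 50.9% of them in 5 islands alone. CHH sites made up 81.4% of them and 79.2% of all shared island sites, while CG made up 5.31% and 9.81%.

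Island cytosines were listed more repeatably, which is not independent of their higher level. Of the island cytosines listed in at least 1 library, 66.5% were listed in all 4, against 59.1% in medium and 49.2% in large blocks. Listing and level share the calling floor. In islands the median listed site had a level of 24.5% in each ΔlaeA library and of 25.8% and 26.2% in WT. In large blocks it had 11.8% and 12.1% in ΔlaeA and 11.9% in each WT library. Whether island cytosines were relisted more often at equal level was not tested. Of the 32827 island cytosines listed in at least 1 library, 476 were listed in both ΔlaeA libraries and neither WT library, and 705 in both WT libraries and neither ΔlaeA library. The same lean held elsewhere, with 5375 and 8780 in medium blocks and 47452 and 68246 in large blocks, so it was not particular to islands. Read depth was lower in islands: the median depth of their listed sites over the median of the library was 0.804 and 0.745 in ΔlaeA and 0.782 and 0.763 in WT, against 1.02 and 1.0 in ΔlaeA and 1.02 and 1.0 in WT in large blocks. Whether depth plays a part in the levels was not tested.

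Among themselves the islands spanned a wide range. There were 78 islands with at least 10 shared sites, while 10 had 1 to 9 and 3 had none, and the levels of single islands are given for those 78 only. Their levels ran from 9.96% to 56.4% in ΔlaeA replicate 1 with a median of 26.1%, from 9.44% to 52.3% in ΔlaeA replicate 2 with a median of 26.9%, from 8.11% to 54.5% in WT replicate 1 with a median of 29.4%, and from 7.87% to 55.2% in WT replicate 2 with a median of 29.9%. The order of the islands repeated closely between libraries: across the 78 islands Pearson's r was 0.985 between the ΔlaeA libraries, 0.988 between the WT libraries, and 0.962 to 0.971 between the strains.

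**Figure D3:**
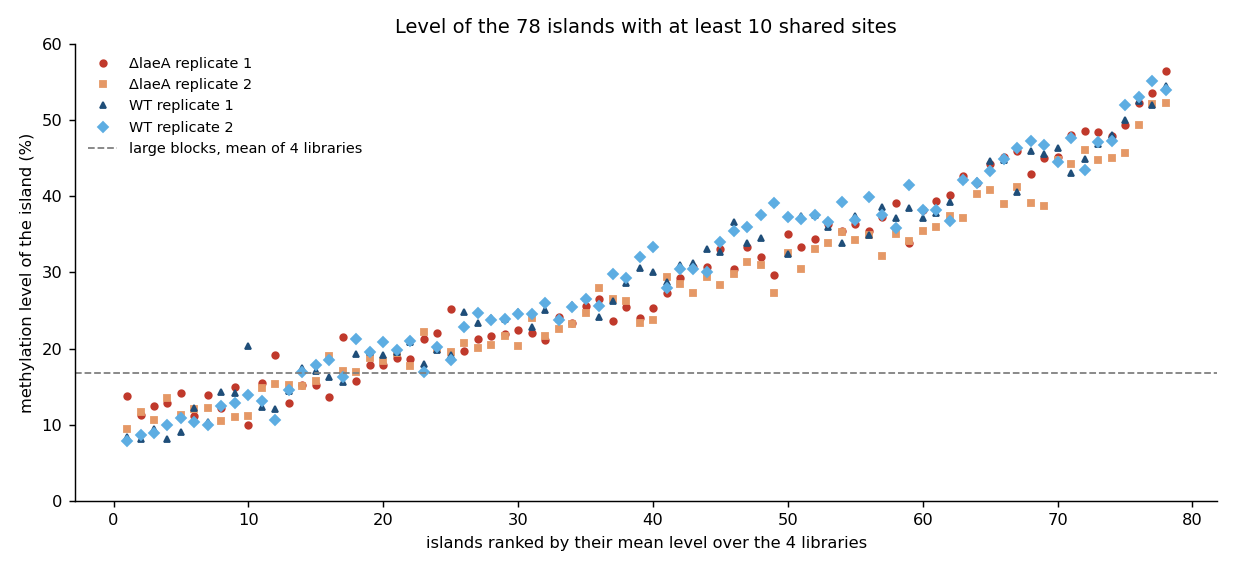
Methylation level in percent of each of the 78 islands with at least 10 shared sites, 1 point per library, with the islands ranked by their mean level. Single islands span the range from 7.87% to 56.4%, the 4 libraries of an island lie close together compared with that range, and most islands lie above the dashed line for large blocks.

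The island with the highest WT level was the one at chromosome 2, 4217001 to 4220000, over the protein-coding gene MYCTH_92508. It had 56.4% and 52.3% in ΔlaeA and 54.5% and 53.9% in WT over 518 shared sites, and 63.7% of these sites had a mean level of at least 50%. Next came the island at chromosome 2, 1644001 to 1646000, which touched MYCTH_2300784, with 53.5% and 52.1% in ΔlaeA and 52.0% and 55.2% in WT. The island at chromosome 4, 2136001 to 2138000, 744 bp from MYCTH_2306594, had 52.2% and 49.3% in ΔlaeA and 52.5% and 53.1% in WT. In the first 2 of these 3 islands the strains overlapped.

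The island at chromosome 1, 2078001 to 2081000, 25 bp from MYCTH_2295064, had 49.4% and 45.7% in ΔlaeA and 50% and 52.0% in WT over 732 shared sites. The fifth, at chromosome 1, 8608001 to 8610000, touched MYCTH_2298809 and had 47.9% and 45% in ΔlaeA and 48.0% and 47.3% in WT. In these 5 islands over 50% of the shared sites had a mean level of 50% or more, which was so in no other island, and the same 5 held the 50.9% of island sites at 75% or more given above.

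The 5 islands with the lowest WT level had few shared sites. The island at chromosome 6, 1182001 to 1184000 (MYCTH_2129788) had 12 such sites and levels of 13.8% and 9.44% in ΔlaeA, against 8.39% and 7.87% in WT. The island at chromosome 3, 2130001 to 2132000 touched MYCTH_2079857, which the study's gene list describes as a Gtr1/RagA G protein, and had 11.3% and 11.7% in ΔlaeA, against 8.17% and 8.58% in WT over 19 sites. The island at chromosome 1, 9125001 to 9127000 (MYCTH_2299110) had 12.9% and 13.5% in ΔlaeA and 8.11% and 9.97% in WT over 32 sites. In all 3 both ΔlaeA libraries lay above both WT libraries, but these islands were picked for low WT levels, which by itself favours that order.

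The remaining 2 were the island at chromosome 1, 10178001 to 10180000, far from genes, with 12.4% and 10.6% in ΔlaeA and 9.46% and 8.92% in WT, and the island at chromosome 5, 3058001 to 3059000, 431 bp from MYCTH_2067021, with 14.1% and 11.3% in ΔlaeA and 8.99% and 10.9% in WT. MYCTH_2067021 is described in the study's gene list as a GCN5-related N-acetyltransferase, a family that acetylates proteins and small molecules. Neither WT list held a CG site in either island.

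Strongly methylated islands were denser in listed sites and thinner in reads. Across the 78 islands the WT level had Pearson's r = 0.690 with listed sites per kb, -0.695 with relative depth and 0.208 with the CG share. These are descriptions over islands of the same libraries, and level and listing share the calling floor. The 13 islands with a mean level under 15% had a median of 47.0 listed sites per kb and a median relative depth of 0.949 in WT, while the 9 islands at 45% or more had 208 sites per kb and a relative depth of 0.678. The lowest relative depth in the mean of each strain was that of the island at chromosome 2, 1390001 to 1392000 (MYCTH_2300626), with 0.505 and 0.511 in ΔlaeA and 0.506 and 0.427 in WT. Listed sites were split evenly between the strands over all islands, with 49.4% and 49.6% on the plus strand in ΔlaeA and 49.6% and 49.8% in WT.

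The 5 islands with the highest relative depth each had at most 5 shared sites, so none entered the tests below. In the island at chromosome 1, 4787001 to 4788000, over MYCTH_2020422, a gene described in the study's gene list by a subunit domain of complex I, the sites were covered at 1.08 and 1.06 times the library median in ΔlaeA, against 1.82 and 2.61 times in WT. This was the only island above 1.5 times in the WT mean. The others were those at chromosome 2, 2051001 to 2052000 (MYCTH_2301048), chromosome 1, 10184001 to 10185000, chromosome 1, 8766001 to 8767000 (MYCTH_2298894) and chromosome 4, 274001 to 275000 (MYCTH_52839), all between 0.976 and 1.30 times in every library.

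Over all islands together the libraries labelled ΔlaeA had the lower mean level in each context, by an amount that 2 libraries against 2 cannot test at 0.05. The pooled CG level was 30.0% ± 1.54 in ΔlaeA and 32.0% ± 0.458 in WT (SD, n = 2 each), a difference of -2.02 percentage points with p = 0.33 by the exact two-sided permutation test. For CHG the levels were 33.2% ± 1.94 in ΔlaeA and 34.8% ± 0.228 in WT, a difference of -1.62, and for CHH they were 33.0% ± 1.94 in ΔlaeA and 34.9% ± 0.534 in WT, a difference of -1.84, each with p = 0.33 by the same exact test. With 2 libraries against 2 this is the smallest p the test can give, and adjusted over the 4 permutation tests made here it was 0.444. ΔlaeA replicate 2 decided the size: without it the differences were -0.931 for CG, -0.243 for CHG and -0.469 for CHH.

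The difference between the strains was larger in islands than in large blocks by 1.47 points in the direction of a lower ΔlaeA level, from gaps of 16.1 ± 1.83 points in ΔlaeA and 17.6 ± 0.472 in WT (SD, n = 2 each), and the exact permutation test gave p = 0.667. Without ΔlaeA replicate 2 this difference of differences was -0.174 points. A design of 2 libraries against 2 cannot reach 0.05, so this test could not have found a difference.

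Single islands differed in both directions between the libraries labelled ΔlaeA and WT. Of the 78 islands tested, 58 had a lower and 20 a higher mean in ΔlaeA. Among all 388 blocks tested, 318 had a lower and 70 a higher mean, so the lean to a lower ΔlaeA mean was not particular to islands. The median difference of the islands was -1.44 percentage points with a range from -10.7 to 5.94, and all blocks had a median of -0.664. Both ΔlaeA libraries lay below both WT libraries in 34 islands (43.6%), against 66.2% of all blocks, and above both in 13 islands (16.7%), against 12.1% of all blocks. In the remaining 31 islands the strains overlapped. The islands were then grouped by mean level over the 4 libraries. Both ΔlaeA libraries were higher in 8 of the 13 islands under 15% and in 3 of 21 from 15% to 25%. Both were lower in 14 of those 21 islands and in 10 of 17 from 25% to 35%. They were also lower in 6 of 18 from 35% to 45% and in 2 of 9 above. The islands were chosen from the WT lists and no share of all blocks is given by band, so these counts cannot set the islands apart.

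edgeR's quasi-likelihood F-test on the methylated and unmethylated reads of each block, with Benjamini-Hochberg adjustment over all 388 blocks, called 10 islands at an adjusted p below 0.05. ΔlaeA was lower in 8 of them and higher in 2. This is 12.8% of the tested islands, against 30.4% of all blocks (28.1% lower and 2.32% higher in ΔlaeA), a smaller share among the islands. Without a trend of the dispersion over blocks the test called 22 islands (28.2%, against 36.6% of all blocks). With each library's overall level as an offset it called 18 (23.1%, against 35.6% of all blocks), 12 lower and 6 higher in ΔlaeA, and only 5 of the 10 were among them. It called 6 islands without ΔlaeA replicate 1 (7.69%, against 9.79% of all blocks) and 3 without ΔlaeA replicate 2 (3.85%, against 12.4%). Without WT replicate 1 or WT replicate 2 a single WT library remained, and these fits called almost no block of any kind. All 10 calls were lost there, as were nearly all calls in other blocks, so this loss is not particular to the islands.

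**Figure D4:**
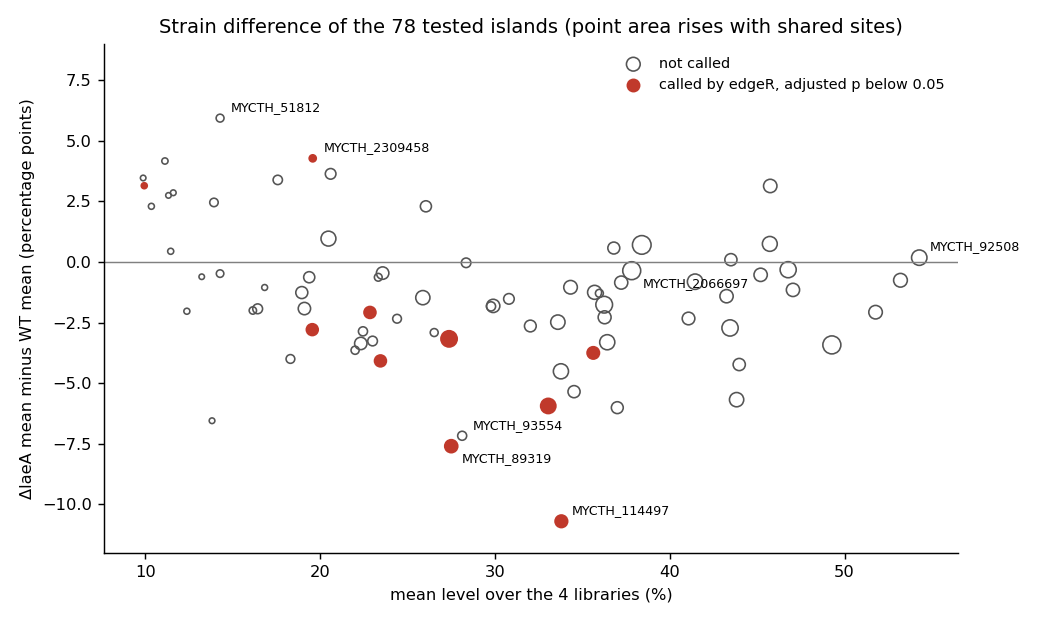
ΔlaeA mean minus WT mean in percentage points against the mean level over the 4 libraries in percent, 1 circle per tested island, filled where edgeR's adjusted p was below 0.05 and labelled by gene for 7 islands. Most circles lie below 0, the lowest is the island beside MYCTH_114497 at -10.7 points and the highest is the one beside MYCTH_51812 at 5.94, which was not called.

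The largest fall was in the island at chromosome 1, 5799001 to 5801000, 938 bp from MYCTH_114497, a gene described in the study's gene list as a beta-galactosidase/glucuronidase, an enzyme type that removes terminal sugar residues. Its level was 29.6% and 27.3% in ΔlaeA, against 39.2% and 39.1% in WT over 316 shared sites, and the groups were far apart. The difference was -10.7 points, the log2 odds ratio was -0.70 and edgeR's adjusted p was 0.0186, with 0.0269 to 0.155 when a library was left out. The lists held 425 and 356 sites there in ΔlaeA and 427 and 433 in WT, so the number was lower mainly in ΔlaeA replicate 2, the shallowest library.

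The second was the island at chromosome 1, 10602001 to 10605000, whose windows touched MYCTH_89319. It had 24.0% and 23.4% in ΔlaeA, against 30.6% and 32.0% in WT over 342 shared sites. The log2 odds ratio was -0.55 with edgeR's adjusted p of 0.0155, and of 0.0504 to 0.129 with a library left out. In the island at chromosome 1, 7809001 to 7811000, 211 bp from MYCTH_89935, the levels were 30.4% and 29.8% in ΔlaeA, against 36.6% and 35.4% in WT over 493 shared sites, with edgeR's adjusted p of 0.0191. The call at MYCTH_89935 was lost with any library left out.

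The other 5 falls were smaller, between -4.08 and -2.08 points, with edgeR's adjusted p from 0.0313 to 0.0451. The island at chromosome 4, 3246001 to 3249000 (MYCTH_2307213) had 21.1% and 21.7% in ΔlaeA and 25% and 26.0% in WT. The one at chromosome 2, 515001 to 517000 (MYCTH_2300162) had 34.4% and 33.1% in ΔlaeA and 37.5% in each WT library. Both were separated by a few points only. The one at chromosome 2, 5196001 to 5199000 (MYCTH_2025626) had 25.4% and 26.2% in ΔlaeA and 28.6% and 29.3% in WT. The one at chromosome 4, 4512001 to 4515000 (MYCTH_2128494) had 18.6% and 17.7% in ΔlaeA and 20.9% and 21.0% in WT, and the one at chromosome 6, 2232001 to 2235000 (MYCTH_2129999 and MYCTH_90104) had 21.9% and 21.7% in ΔlaeA and 23.9% in each WT library. In each of these 5 islands the 4 libraries did not overlap by strain. With the library offset only the call at MYCTH_2307213 stood (edgeR's adjusted p 0.0208), and the other 4 were lost, with adjusted p of 0.0961 at MYCTH_2300162, 0.0629 at MYCTH_2025626, 0.0735 at MYCTH_2128494 and 0.265 at MYCTH_2129999.

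The 2 rises were in weakly methylated islands. In the island at chromosome 5, 3754001 to 3755000, 491 bp from MYCTH_2309458, the levels were 21.2% and 22.2% in ΔlaeA, against 18.0% and 16.9% in WT over 53 shared sites (log2 odds ratio 0.39, edgeR's adjusted p 0.0412). The call at MYCTH_2309458 was lost with any 1 library left out. The other was the island touching MYCTH_2079857, whose levels stand above among the lowest (log2 odds ratio 0.51, edgeR's adjusted p 0.0408). This call was lost with the library offset (adjusted p 0.0603), with a trend on the quasi-dispersion only (0.0538) and with any 1 library left out (0.14 to 0.344). It was also the island whose number of listed sites differed most between the strains, with 176 and 158 in ΔlaeA, against 90 and 101 in WT.

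**Figure D5:**
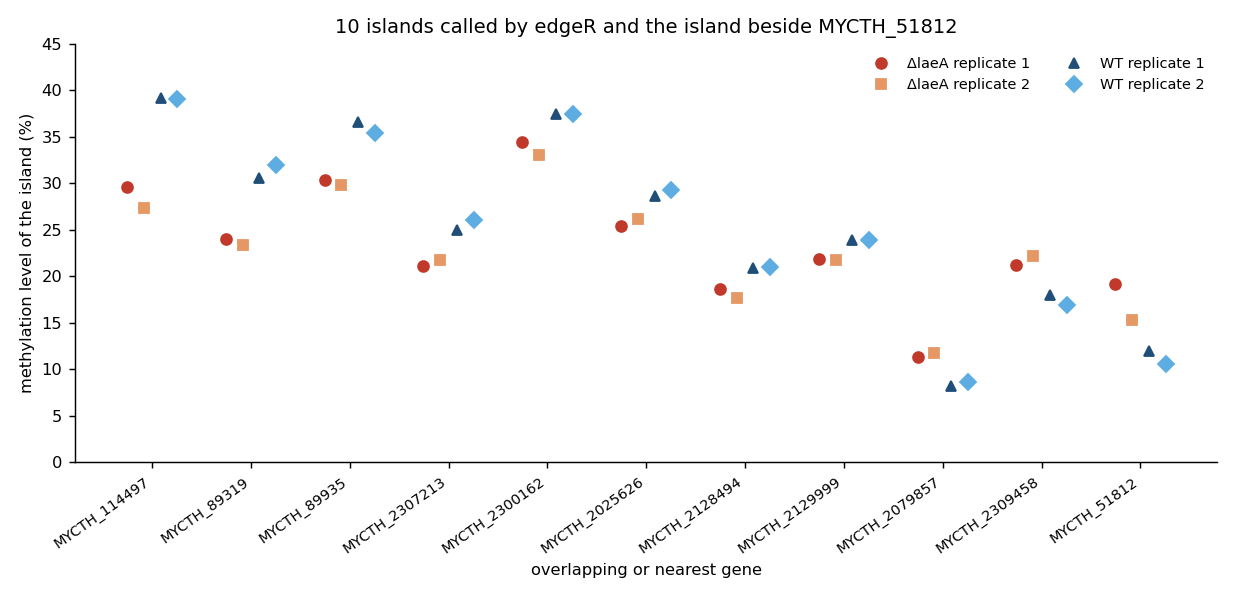
Methylation level in percent of the 10 islands called by edgeR and of the island beside MYCTH_51812, 1 point per library, ordered by the strain difference and labelled by overlapping or nearest gene. In each island both ΔlaeA libraries lie on 1 side of both WT libraries, and the gap is widest beside MYCTH_114497, where ΔlaeA has 29.6% and 27.3% and WT has 39.2% and 39.1%.

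edgeR's quasi-likelihood F-test was also run on 1-kb windows, with a trend on the quasi-dispersion only, to place differences within the islands. With that setting the block test called 19 islands (24.4%, against 50% of all blocks). Of 155 island windows tested, 31 passed an adjusted p of 0.05 by edgeR, 26 lower and 5 higher in ΔlaeA. This is 20%, against 4.59% of all 10187 windows (3.53% lower and 1.06% higher). The share was 9.89% of windows in medium blocks, 3.42% in large blocks and 8.42% at chromosome ends. Among windows with a mean level from 25% to 35%, 14 of 36 island windows were called. It was 15 of 145 in medium blocks, 22 of 199 in large blocks and 4 of 8 at chromosome ends. At 35% or more it was 4 of 52 island windows, against 4 of 45 in medium blocks, 0 of 12 in large blocks and 0 of 2 at chromosome ends. These shares were not compared by a test. Without WT replicate 1 the test called 13 island windows (8.39%, against 1.42% of all windows) and without WT replicate 2 it called 8 (5.16%, against 1.28%). A quasi-binomial model fitted to each window on its own called 0 island windows and 0.00982% of all windows. In that model 19 of the 155 island windows had an unadjusted p under 0.05, against 1146 of all 10187 windows.

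In 5 windows of 3 islands the call stood with any 1 library left out. The share of all windows that kept a call in this way is not given here, so this count cannot set the islands apart. Both windows of the island beside MYCTH_114497 were among these 5. The window from 5800001 had 27.0% and 26.6% in ΔlaeA, against 38.7% and 40.3% in WT (edgeR's adjusted p 6.16e-07, and at most 0.000753 with a library left out), and the window from 5799001 had 31.6% and 27.9% in ΔlaeA, against 39.4% and 38.5% in WT (8.4e-05, at most 0.0149). In the island at MYCTH_89319 the windows from 10603001 and 10604001 fell, with 25.2% and 25.1% in ΔlaeA against 32.7% and 34.2% in WT, and with 21.4% and 18.0% in ΔlaeA against 27.7% and 30.4% in WT (edgeR's adjusted p 3.06e-05 and 0.000146).

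The fifth window was a rise and made up the whole island at chromosome 4, 2682001 to 2683000, beside MYCTH_51812. Its level was 19.2% and 15.3% in ΔlaeA, against 12% and 10.6% in WT over 89 shared sites, and its lists held 171 and 166 sites in ΔlaeA, against 128 and 119 in WT. As a window it passed edgeR's test with an adjusted p of 0.00035, and as a block it did not, with 0.0726. The block test and the window test differ in their regions and in the dispersion trend. Which of these accounts for the unlike results was not tested. Of the 11 genes that the study centres on, this island was near fbp, the gene of fructose-1,6-bisphosphatase in gluconeogenesis, which lies 3526 bp away on the far side of MYCTH_51812. No island touched fbp, pck, cre-1, laeA, laeB, xlnR, clr-1, clr-2, grf-3, grf-2 or grf-1 or lay within 1 kb of them. The next nearest distances were 15887 bp for laeB and 23662 bp for grf-1.

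The number of listed sites was lower in the ΔlaeA mean in 64 islands, higher in 26 and equal in 1, but islands were chosen for sites in WT and this count can lean toward WT for that reason, so it is not tested. In 85 islands every occupied window also held at least 10 sites in both ΔlaeA lists. The 5 islands whose number differed most were all described by level above, at MYCTH_2079857, MYCTH_51812, MYCTH_2307213, MYCTH_114497 and MYCTH_2128494. The one at MYCTH_2128494 had 402 and 347 sites in ΔlaeA and 444 and 447 in WT. In all 5 the number of sites and the level differed in the same direction, but both depend on the 5% floor of the lists and are not independent.

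Transfer RNA genes, of which the annotation holds 192, were within 1 kb of 5 islands (5.49%). They were within 1 kb of 2 medium blocks (1.75%), 6 large blocks (3.53%) and 13 of all blocks (3.23%). This group was picked after its values had been seen. The ΔlaeA mean was the higher one in 4 of the 5, against 20 of the 78 tested islands and 70 of all 388 tested blocks. It was 19.3% in ΔlaeA and 15.9% in WT for the island at chromosome 1, 65001 to 67000, over MYCTH_t53, and 13% in ΔlaeA and 10.2% in WT for the island at chromosome 2, 89001 to 90000, over MYCTH_t54. It was 27.2% in ΔlaeA and 24.9% in WT for the island at chromosome 5, 4217001 to 4219000, over MYCTH_t144 and MYCTH_t145. The remaining rise was in the island at chromosome 5, 3058001 to 3059000, given above among the lowest. The mean was lower in ΔlaeA, with 42.1% against 44.8% in WT, for the island at chromosome 3, 1783001 to 1786000, over MYCTH_t95. None of the 5 passed edgeR's block test, where the adjusted p ran from 0.0963 to 0.442.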

How the data were processed

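For each of 2 ΔlaeA and 2 WT libraries the authors deposited a list of called cytosines with counts of methylated and unmethylated reads. The deposited lists also gave the level as a fraction of methylated reads, and a p-value and adjusted p-value of the call by the authors. The labels name FastQC 0.11.5 and Bismark 0.16.3 as processing tools, and the genome build is not given in the sources used here. The lists held no site under 5 reads, under 2 methylated reads or under a level of 5%, so an unlisted cytosine may be unmethylated or thinly covered and every level lies above that of all cytosines. A table of differentially methylated regions holds the authors' own comparison and was not used. Gene bounds came from RefSeq (ASM22609v1, 9292 genes, no strand), matched by chromosome, and coordinates count from 1. No sequence was used.

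Windows, blocks and classes were computed with Python 3.11.15 and pandas 2.3.3. Methylated and unmethylated counts at shared sites were summed per block and per 1-kb window and tested with edgeR 4.0.16 in R 4.3.3 (quasi-likelihood F-test, library and strain by methylation terms, at least 10 sites and 10 methylated reads, Benjamini-Hochberg over all blocks or windows at 0.05). The block test used a trend of the dispersion and of the quasi-dispersion, and the window test used only the latter. The edgeR fits of blocks and of windows at their main settings were also run on simulated counts, whose outcome is not given here. Library values were compared by exact two-sided permutation tests. Listed sites had a median of 56 and 47 reads in ΔlaeA and of 55 and 59 in WT, and precision falls with the number of shared sites in an island.

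No label says that replicates came from separate cultures, so p-values measure only the spread between these libraries, which may be technical. Named islands are those called by the block test, the 5 highest and 5 lowest in WT level among those with 10 shared sites, the 5 highest in relative depth, the 5 that differed most in listed sites, those within 1 kb of 11 genes of the study, and those at the limits of the rule. Other named islands were chosen after their values were seen. The members, lists and tests were chosen with earlier results of these data known.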

Additional observations from a re-analysis of the deposited data

How the results depend on the processing

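The rule gave 89 islands with at least 20 sites per window, 90 with windows shifted by 500 bp, 102 with no gap joined and 98 from the ΔlaeA lists, against 91. The block test called 10 islands (12.8%, against 30.4% of all blocks). It called 60 with Fisher's exact test, which pools replicates (76.9%, against 86.6%), and 1 with a quasi-binomial model per region (1.28%, against 8.51%). Unadjusted, that model passed 14 of 78 islands and 153 of all 388 blocks. With the library offset the block test called 18 (23.1%, against 35.6%, 5 of the 10 among them). It called 22 without a dispersion trend (28.2%, against 36.6%, all 10 among them) and 19 with a trend on the quasi-dispersion only (24.4%, against 50%, 8 of the 10). These last 2 settings were chosen after seeing the data. Replicate numbers did not pair the libraries, since deviations of same-numbered libraries correlated at r = -0.0464 over blocks and 0.00178 over windows. A fit with a block for the replicate number called 26 islands (33.3%, against 49% of all blocks), 9 of the 10 among them but not the one at MYCTH_2129999 (adjusted p 0.138), and 35 windows. With a library left out, where the lone library of a strain is assumed to vary like the others, it called 0 to 6 islands, none in all 4 fits. The window test called 31 island windows (20%, against 4.59% of all windows), 97 with Fisher's exact test (62.6%, against 35.7%), 0 with the quasi-binomial model (19 unadjusted), and 8 to 38 with a library left out. The pooled CG, CHG and CHH differences and the strain difference of the gap to large blocks stayed negative in every alternative. With a library left out they ran from -3.11 to -0.931 for CG, -2.99 to -0.243 for CHG, -3.21 to -0.469 for CHH and -2.76 to -0.174 for the difference of the gap, with no test. The islands with under 10 shared sites entered no test, and at 2 libraries per strain the permutation tests cannot reach 0.05.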

Other observations

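With the rule applied to the lists of the 2 libraries labelled ΔlaeA, 10 islands touched no block found from the WT lists, and 1 WT island touched no block found from the ΔlaeA lists. Methylation in all of them was weak. Over the listed sites of each library, the 10 had levels of 6.55% to 9.95% in ΔlaeA and of 5.45% to 9.09% in WT, near the floor of the lists. One of the 10 lay over the targeted gene laeA, at chromosome 1, 1373001 to 1375000, with 89 and 44 listed sites in ΔlaeA and 2 and 1 in WT. Another, at chromosome 4, 3166001 to 3167000 over MYCTH_2019371, had 65 and 88 listed sites in ΔlaeA, against 0 and 2 in WT, and its ΔlaeA sites were covered at 3.32 and 4.19 times the median depth of their library. A further one lay at chromosome 3, 697001 to 698000, 496 bp from MYCTH_2303364, with 62 and 53 sites in ΔlaeA and 4 and 20 in WT. The WT island without a counterpart, at chromosome 4, 274001 to 275000, 284 bp from MYCTH_52839, had 9 and 8 listed sites in ΔlaeA and 13 and 27 in WT. These regions were chosen by their numbers of sites in 1 strain, so the differences are a description.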
